A study of Arabidopsis thaliana with 12 samples.

Results

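Cytochrome P450 genes were read in 10-day-old Arabidopsis thaliana seedlings of 3 T-DNA mutants, mbd4, mbd6 and mbd11, and of wild type (WT). All plants were of the Col-0 ecotype and were grown on MS medium, with 3 biological replicates per genotype and 1 Affymetrix array each, 12 arrays in all. Each mutation lies in a gene for a protein with a methyl-CpG-binding domain, and the comparisons ask which transcripts change when each is disrupted. The labels do not say how many insertion alleles or seedlings stood behind a sample, and transcripts of MBD4, MBD6 and MBD11 were not analysed here, because 0 probe sets were assigned to any of them alone.

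The genes were chosen by name, with earlier results of these data known. A gene was taken when its probe set was assigned to it alone and its symbol had the form CYP, a family number, 1 or 2 letters and a gene number. This gave 22 of the 13356 genes that had a probe set of their own, and each of the 22 had a single probe set. Family 71 held 18 of them, all in subfamily CYP71B, and the other 4 were CYP51G2, CYP78A9, CYP79A2 and CYP84A4. The RefSeq gene table for TAIR10.1 lists 225 symbols of this form in 40 families, 35 of them CYP71B, so the 22 genes describe mainly 1 subfamily. P450 genes known by other symbols were looked up from a list of 30 loci, of which 0 had a probe set of their own in the annotation used. That annotation assigned no gene to 8730 of the 22746 non-control probe sets. A gene called not measured here may thus still have a probe set on the array.

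Cytochrome P450 enzymes are haem-containing monooxygenases, mostly anchored in the endoplasmic reticulum, which insert oxygen into small molecules with electrons passed on by a reductase. Plants use them to make sterols, hormones, lignin precursors, cuticle lipids and defence compounds, and the name gives family, subfamily and gene in turn. The CYP71B subfamily is large in Arabidopsis and lies partly in tandem gene arrays. Its best known enzyme, PAD3 or CYP71B15, completes the synthesis of the defence compound camalexin, and most of its other members have no assigned substrate.

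Values are deposited log2 intensities, and a change is mutant minus WT in log2 units. A gene was called when limma's moderated test gave an adjusted p under 0.05 over all 22746 non-control probe sets. The samples are whole seedlings, so fewer cells of a type and less RNA per cell cannot be told apart. Shoot transcripts such as RCA, the Rubisco activase gene, and the root beta-glucosidase gene PYK10 were both present, at 13.74 and 12.47 in WT.

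The mbd11 arrays stood apart from the other 9. Their correlations with the others ran from 0.900 to 0.960, against 0.979 or more among the other arrays. Their interquartile ranges were 2.83 to 3.63, while those of WT were 3.83 to 3.90. The mean 3' minus 5' difference of plant control transcripts, a measure of RNA and labelling quality, was 1.98 to 2.58 in mbd11, 1.08 to 2.08 in mbd4, 1.20 to 1.30 in mbd6 and 1.17 to 1.5 in WT. The highest mbd4 value was that of replicate 3. Among the 22 P450 genes the median SD within a genotype was 0.525 in mbd11, 0.144 in mbd4, 0.133 in mbd6 and 0.109 in WT.

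The 22 genes split evenly by signal in WT. The WT mean was under 4 for 7 genes, from 4 to 5 for 4 genes and 5 or more for 11 genes. Thus 50% of the genes were under 5, beside 37.4% of all probe sets. Levels of different probe sets are not comparable as amounts of RNA, and values under 4 lie near the low end of these arrays. The 7 dimmest genes were CYP71B16, CYP71B31, CYP71B21, CYP71B25, CYP71B27, CYP79A2 and CYP71B38, with WT means of 2.76, 2.79, 2.95, 3.20, 3.29, 3.34 and 3.41. CYP71B36, CYP51G2, CYP71B37 and CYP84A4 had WT means of 4.0, 4.07, 4.28 and 4.86. The 11 others ran from 5.49 in CYP71B29 to 8.47 in CYP71B6.

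In mbd6 seedlings CYP71B22, CYP71B23 and CYP71B29 rose and CYP71B35 fell, 4 called genes of 22 or 18.2%. The background share of called probe sets in mbd6 was 6.91%, with 4% called higher and 2.91% called lower. As the genes were chosen with earlier results of these data known, these shares are given side by side and not as a test. All 4 called genes belong to subfamily CYP71B, and all had WT means of 5 or more. Among probe sets with such means 5.12% were called higher and 4.49% lower. The median change of the 22 genes was 0.07, beside -0.03 for all probe sets. The mbd6 and WT values did not overlap for 8 of the 22 genes, or 36.4%, against a background of 36.1%. The gap between P450 calls and background in mbd6 was narrower in several fits. Without all mbd11 arrays 5 of 22 genes were called, beside 18.1% of all probe sets. With weights it was 5 beside 21.5%, and without mbd11 replicate 2 it was 4 beside 13.9%. Without mbd11 replicate 1 it was 4 beside 8.05%. Without mbd11 replicate 3 the gap was not narrower, at 5 of 22 beside 8.46%. With probe sets of a mean under 5 dropped it was not narrower either, at 4 of 11 beside 12.3%.

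CYP71B22 was at 8.29, 8.33 and 8.15 in mbd6, against 5.80, 5.79 and 5.88 in WT. Every mbd6 array lay well above every WT array, and replicates of each genotype lay close together. CYP71B22 rose by 2.43 (SE 0.21), or 5.39-fold, with a limma adjusted p of 3.27e-05. This call held in all 23 alternative settings, with changes of 2.38 to 2.48.

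CYP71B23, the gene next to CYP71B22 on the chromosome, was at 8.53, 7.69 and 7.86 in mbd6, against 6.68, 6.74 and 6.79 in WT. The groups did not overlap, and mbd6 replicate 1 was the highest. CYP71B23 rose by 1.29 (SE 0.21), or 2.45-fold (limma adjusted p = 0.00255). Without mbd6 replicate 1 the change was 1.04, and the call held in all 23 settings.

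CYP71B29 was at 6.41, 6.45 and 6.65 in mbd6, against 5.50, 5.50 and 5.48 in WT. It rose by 1.01 (SE 0.25), or 2.02-fold (limma adjusted p = 0.0258), with no overlap. The size was 0.94 to 1.06 over all settings, but the call was lost without WT replicates 1, 2 or 3 (adjusted p = 0.0873, 0.0862 and 0.0946) or mbd6 replicates 1, 2 or 3 (0.0729, 0.0738 and 0.107). It was also lost with a second quantile normalization (0.066) and with values under 4 raised to 4 (0.0615).

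CYP71B35 was at 5.91, 6.03 and 5.99 in mbd6, against 6.70, 6.57 and 6.51 in WT. It fell by 0.62 on the log2 scale (SE 0.13; limma adjusted p = 0.0106), and the groups did not overlap. The call was lost without WT replicate 1 or mbd6 replicate 1 (adjusted p = 0.0642 and 0.0534; 8.39e-05 to 0.0642 over all settings).

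The other 18 genes had mbd6 changes between -0.25 and 0.45 and were not called. CYP71B6, an enzyme of indole metabolism that acts on indole acetonitrile, had the largest of these. It was at 9.0, 8.87 and 8.88 in mbd6, against 8.49, 8.50 and 8.43 in WT, without overlap. Its change of 0.45 did not pass over all arrays (95% interval 0.08 to 0.81; limma adjusted p = 0.179). It passed without mbd11 replicate 3 (0.0317) and without all mbd11 arrays (0.00402; 0.00187 to 0.451 over all settings). CYP78A9, which promotes seed and fruit growth, was at 5.64, 5.89 and 5.79 in mbd6 and at 6.02, 6.0 and 6.04 in WT, a change of -0.25 (adjusted p = 0.685).

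In mbd4 seedlings the limma test called 0 of the 22 P450 genes, beside a background of 2.3%. At an unadjusted p under 0.05 it gave 5 genes, CYP71B22, CYP71B29, CYP71B35, CYP71B23 and CYP71B24, or 22.7%, beside 11% of all probe sets. The median change was -0.01, and -0.03 for all probe sets. The mbd4 and WT values did not overlap for 6 genes, or 27.3%, against a background of 28.5%.

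CYP71B22 was at 6.59, 6.75 and 6.72 in mbd4, against 5.80, 5.79 and 5.88 in WT. All mbd4 arrays lay above all WT arrays. The change of 0.86 (SE 0.21, 95% interval 0.41 to 1.32) missed the threshold (limma adjusted p = 0.0559). It passed without mbd11 replicates 1, 2 or 3 (adjusted p = 0.00564, 0.0197 and 0.00848) and without all mbd11 arrays (0.000103), with the same size in each.

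CYP71B29 was at 6.15, 6.02 and 6.66 in mbd4, against 5.48 to 5.50 in WT, a change of 0.78 (95% interval 0.25 to 1.32; adjusted p = 0.162) that passed without mbd11 replicate 2 (0.00642). CYP71B23 was at 7.10, 7.37 and 7.24 in mbd4, against 6.68, 6.74 and 6.79 in WT, a change of 0.50 (adjusted p = 0.384). CYP71B35 was at 6.15, 6.30 and 6.18 in mbd4, against 6.70, 6.57 and 6.51 in WT, a change of -0.38 (adjusted p = 0.196). None of these 3 genes overlapped between mbd4 and WT, and none was called over all arrays.

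CYP78A9 was at 5.73, 5.61 and 5.58 in mbd4 and at 6.02, 6.0 and 6.04 in WT, also without overlap, a change of -0.38 (adjusted p = 0.53). With all mbd11 arrays left out, the mbd4 comparison called CYP71B22 and CYP71B29 higher and CYP71B35 and CYP78A9 lower, 4 of 22 beside a background of 9.72%. The comparisons of mbd4, mbd6 and mbd11 share their WT arrays, so their values are given side by side and not as separate evidence.

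**Figure D1:**
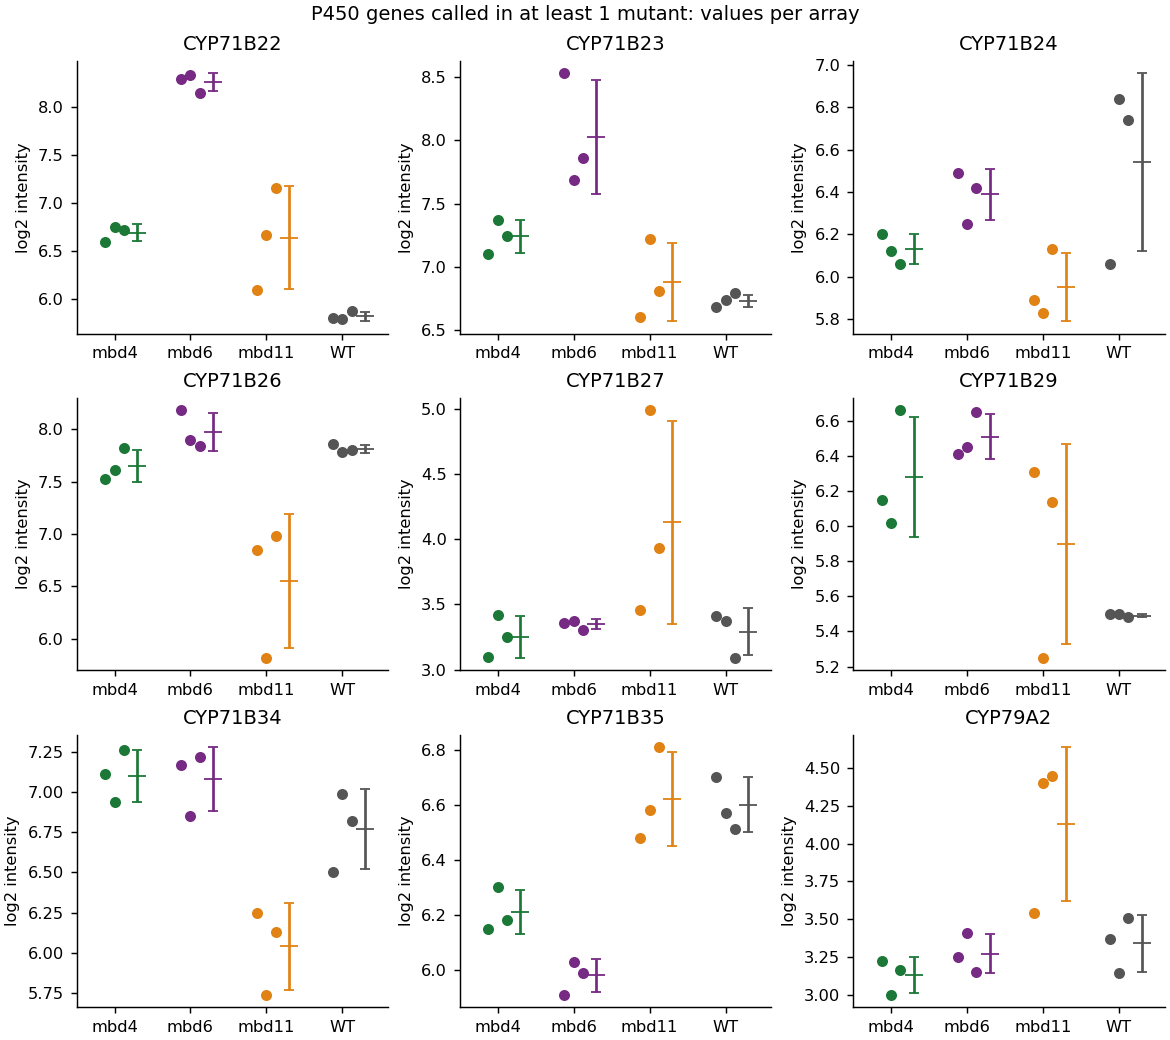
Deposited log2 intensity (y axis, a scale of its own per panel that does not start at 0) of the 9 P450 genes called in at least 1 mutant, by genotype (x axis). Points are the 3 arrays of a genotype, and the bar beside them is the mean ± SD. CYP71B22 lies at 8.15 to 8.33 in mbd6, 6.59 to 6.75 in mbd4, 6.09 to 7.16 in mbd11 and 5.79 to 5.88 in WT.

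In mbd11 seedlings CYP71B22, CYP71B27 and CYP79A2 rose and CYP71B26, CYP71B34 and CYP71B24 fell. These are 6 called genes of 22, or 27.3%, below the background of 40.2%, in which 20.4% were called higher and 19.7% lower. The median change was 0.21, and 0.12 for all probe sets. No overlap between mbd11 and WT was seen for 7 genes, or 31.8%, against a background of 47.7%.

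CYP71B26 was at 6.85, 5.82 and 6.98 in mbd11, against 7.86, 7.78 and 7.80 in WT. Every mbd11 array was below every WT array, with replicate 2 the lowest. CYP71B26 fell by 1.27 on the log2 scale (SE 0.25; limma adjusted p = 0.00163), and the call held in all 22 settings, with changes of -1.67 to -0.90. The change was -0.90 without mbd11 replicate 2.

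CYP71B34 was at 6.25, 5.74 and 6.13 in mbd11, against 6.50, 6.99 and 6.82 in WT, without overlap. It fell by 0.73 on the log2 scale (SE 0.18; limma adjusted p = 0.00672). The call was lost with each array weighted by its genotype's residual spread (adjusted p = 0.0905; 0.00442 to 0.0905 over all settings).

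CYP71B24 was at 5.89, 5.83 and 6.13 in mbd11, against 6.06, 6.84 and 6.74 in WT. The groups overlapped, because WT replicate 1 was as low as the mutant arrays. It fell by 0.60 on the log2 scale (SE 0.19; limma adjusted p = 0.0239), a call lost without WT replicate 2 or 3 (0.11 and 0.0964), with weighted arrays (0.243), with only the 6 arrays compared (0.111) or with the 3' minus 5' difference as covariate (0.0796).

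CYP71B22 was at 6.09, 6.67 and 7.16 in mbd11, against 5.80, 5.79 and 5.88 in WT. The mutant arrays were spread over about 1 log2 unit but all lay above WT. It rose by 0.81 (SE 0.21; limma adjusted p = 0.00871). With the 3' minus 5' difference as covariate the change was 0.49 (adjusted p = 0.239), and in a fit of just the 6 arrays the adjusted p was 0.0644. CYP71B22 was the single P450 gene of the 22 above every WT array on all 9 mutant arrays, and 0 genes were below every WT array on all 9. Of all probe sets, 3.25% were above and 3.59% below on all 9.

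The other rises in mbd11 were in dim genes. CYP79A2, which converts phenylalanine to its aldoxime on the way to benzylglucosinolate, was at 3.54, 4.40 and 4.45 in mbd11, against 3.37, 3.14 and 3.51 in WT. It rose by 0.79 (SE 0.22; limma adjusted p = 0.0119), and by 0.29 with values under 4 raised to 4 (adjusted p = 0.0563). The call was also lost without WT replicate 2 (0.0531), with a second quantile normalization (0.46; 0.099), with only the 6 arrays compared (0.0727) and with the 3' minus 5' covariate (0.167). CYP71B27, annotated as a transcribed pseudogene, was at 3.46, 4.99 and 3.93 in mbd11, against 3.41, 3.37 and 3.09 in WT. It rose by 0.84 (SE 0.29; limma adjusted p = 0.0346), a call lost in 8 of 21 settings. These include each WT array left out (adjusted p = 0.0628, 0.0694 and 0.112) and values under 4 raised to 4 (0.33; 0.296). The change was 0.41 without mbd11 replicate 2 (0.0492) and 1.17 without replicate 1 (0.00339).

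Change in mbd11 went with signal level. All 11 P450 genes with a WT mean under 5 had a change above 0 in mbd11, with a median of 0.44, but 9 did without mbd11 replicate 2 or with the 3' minus 5' covariate and 8 with a second quantile normalization. On mbd11 replicate 1 only 6 of the 11 lay above their WT mean, with a median of 0.12, against all 11 on replicates 2 and 3, with medians of 0.64 and 0.41. Those with a WT mean of 5 or more had a median of -0.10, with 5 above 0 and 6 below. The same split over all probe sets gave medians of 0.37 and -0.19, with 27.0% called higher under 5 and 30.8% called lower at 5 or more. Changes above 0 were seen for 7433 of the 8516 probe sets under 5 and for 5553 of the 14230 at 5 or more. CYP79A2 and CYP71B27 are thus set against 0.37 for all dim probe sets, and CYP71B22, at a WT mean of 5.82, against the 0.09 of all probe sets with WT means of 5 to 6 (quartiles -0.28 and 0.49). In mbd6 the medians of all probe sets were -0.03 in both classes, and in mbd4 they were -0.04 and -0.03. The narrower range and the higher 3' minus 5' difference go with the mbd11 genotype. Over mbd11 replicates 1, 2 and 3 the interquartile range was 3.63, 2.83 and 3.58, and the 3' minus 5' difference 1.98, 1.99 and 2.58. The mbd4 replicate 3, at a difference of 2.08, had a median of -0.04 for the 11 dim genes. The part of both measures in the single-gene changes was not tested beyond the covariate fits given here.

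Single arrays carried several of the wide mbd11 values. CYP71B31, which oxidises linalool in flowers, was at 2.78, 5.49 and 3.12 in mbd11, against 2.84, 2.72 and 2.80 in WT. Replicate 2 alone stood high, and the change of 1.01 was not called (95% interval -0.08 to 2.10; limma adjusted p = 0.122). Without replicate 2 it was 0.16, and without replicate 1 it was 1.52 and passed (0.0243). CYP51G2, a transcribed pseudogene of the sterol demethylase family, was at 4.19, 5.44 and 4.24 in mbd11, against 4.10, 4.16 and 3.96 in WT, a change of 0.55 (adjusted p = 0.11) that passed without mbd11 replicate 1 or 3 (0.037 and 0.0452) and was 0.14 without replicate 2 (0.375). CYP71B25 was at 2.85, 4.43 and 3.20 in mbd11, against 3.15, 3.07 and 3.37 in WT, a change of 0.30 (adjusted p = 0.439) that was -0.17 without replicate 2.

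Among the 11 genes with a WT mean of 5 or more, mbd11 replicate 2 was the lowest mbd11 array for 6, replicate 1 for 4 and replicate 3 for 1. CYP71B28 was at 6.52, 5.32 and 6.99 in mbd11, against 6.66, 6.89 and 6.80 in WT, a change of -0.51 (adjusted p = 0.204) that was -0.86 and passed without replicate 3 (0.0237), and was -0.03 without replicate 2 (0.896). CYP71B29 was at 6.31, 5.25 and 6.14 in mbd11, against 5.48 to 5.50 in WT. Its change of 0.41 was not called (adjusted p = 0.196), but without mbd11 replicate 2 it was 0.73 and passed (adjusted p = 0.00317). CYP71B5 was at 6.80, 5.57 and 6.01 in mbd11, against 6.25, 6.30 and 6.61 in WT, a change of -0.26 (adjusted p = 0.398). It was 0.01 without replicate 2 (adjusted p = 0.961), and -0.60 without replicate 1, where it passed (0.0158).

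**Figure D2:**
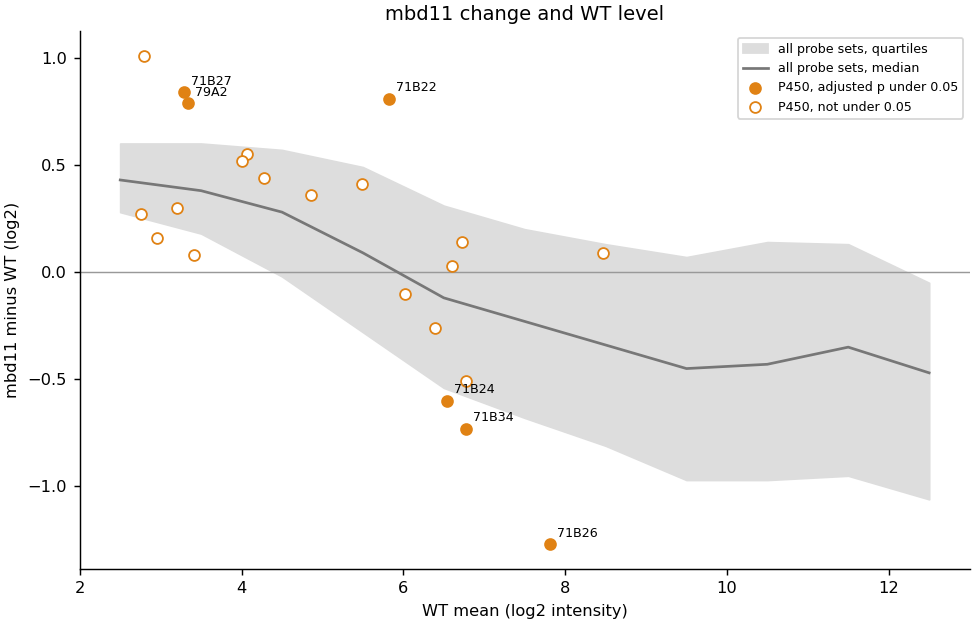
Change in mbd11 minus WT (y axis, log2) of the 22 P450 genes against their WT mean (x axis, log2 intensity). The line and band are the median and quartiles of all probe sets in classes of 1 log2 unit of WT mean, with all under 3 and all of 12 or more in the end classes. The 11 genes under 5 lie above 0 here (9 without mbd11 replicate 2 and 8 after a second quantile normalization), CYP71B22 lies at 0.81 above the band, and CYP71B26 lies at -1.27 below it.

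The remaining genes were not called in any mutant. CYP84A4, an enzyme of arabidopyrone synthesis in the phenylpropanoid pathway, ranged from 4.55 to 5.34 over the 12 arrays, with a change of 0.36 in mbd11 (adjusted p = 0.136) and of 0.03 and 0.02 in mbd4 and mbd6. CYP71B36 and CYP71B37 ranged from 3.74 to 5.12 and from 3.95 to 5.30, with mbd11 changes of 0.52 and 0.44 (adjusted p = 0.111 and 0.199). Both passed without mbd11 replicate 1, at 0.83 each (0.00794 and 0.00277), and were at 0.23 and 0.15 without replicate 3 (0.385 and 0.622). CYP71B16, CYP71B21 and CYP71B38 stayed between 2.58 and 3.70 on all arrays. By family, the 18 CYP71B genes had WT means of 2.76 to 8.47 and median changes of -0.01 in mbd4, 0.12 in mbd6 and 0.15 in mbd11. The single genes of families 51, 78, 79 and 84, CYP51G2, CYP78A9, CYP79A2 and CYP84A4, had WT means of 4.07, 6.02, 3.34 and 4.86, and their medians were -0.09, -0.03 and 0.45 in the 3 mutants. CYP79A2 in mbd11 was their only call. In all, 9 of the 22 genes were called in at least 1 mutant, 1 of them, CYP71B22, in 2 mutants, and 13 in 0. Of all probe sets 43.2% were called in at least 1 mutant and 5.07% in 2 or more.

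**Figure D3:**
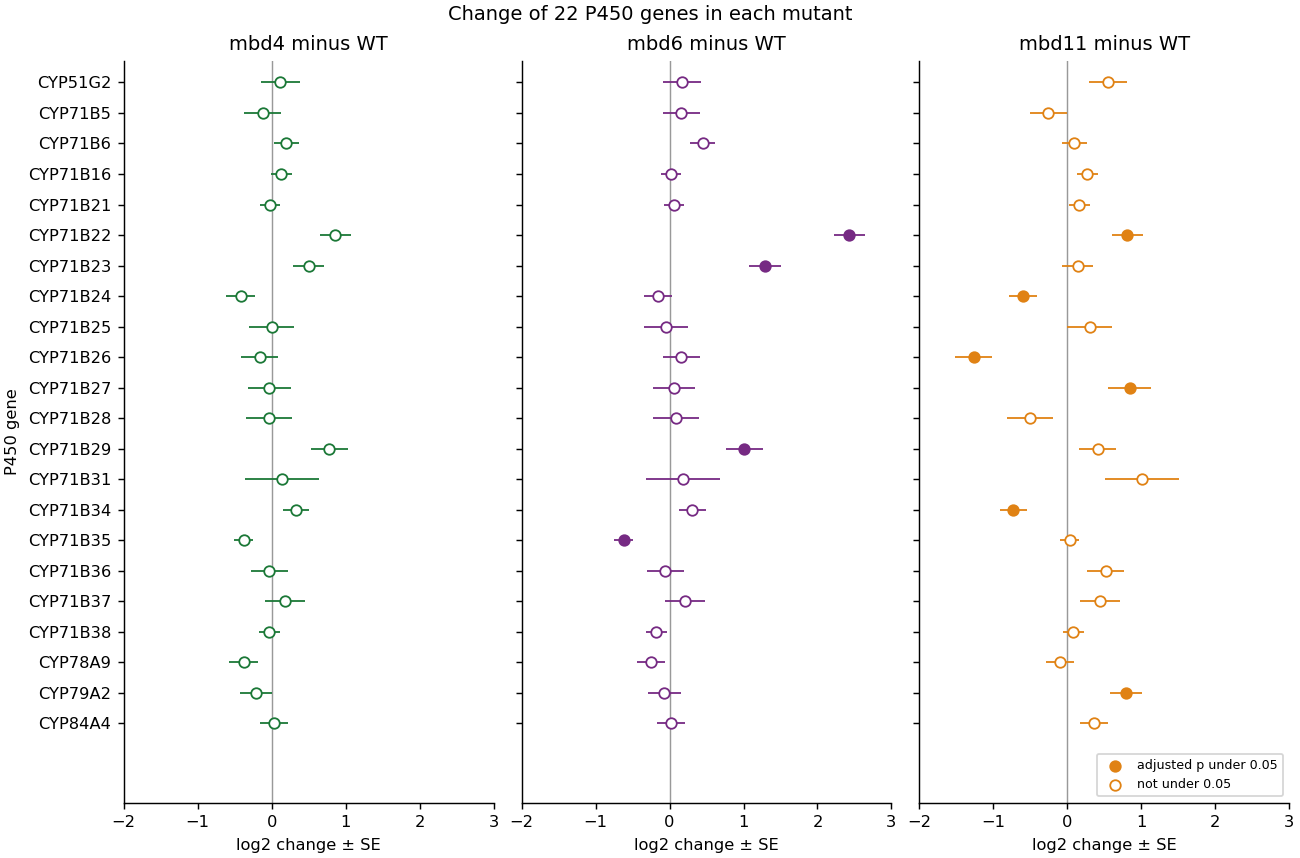
Fitted change (x axis, log2 ± SE) of each of the 22 P450 genes (y axis, by family and gene number) in mbd4, mbd6 and mbd11 relative to WT. Filled points had an adjusted p under 0.05. No point is filled for mbd4, 4 are for mbd6 and 6 are for mbd11, and CYP71B22 in mbd6 is the farthest from 0, at 2.43.

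The mutants were also compared with each other. CYP71B22 was higher in mbd6 than in mbd4 by 1.57 (SE 0.21), or 2.97-fold (limma adjusted p = 0.00223), the only call of 22 beside a background of 2.05%. It held in all 23 settings. CYP71B23 differed by 0.79 between mbd6 and mbd4, at 7.69 to 8.53 in mbd6 and 7.10 to 7.37 in mbd4. It missed the threshold (adjusted p = 0.0868), and it passed among the settings that called 2 genes, such as that without all mbd11 arrays.

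In mbd11 against mbd6, 7 of 22 genes were called, beside a background of 42.4%. CYP71B22 was lower by 1.62 (limma adjusted p = 0.000102) and CYP71B23 by 1.15 (adjusted p = 0.00119) in mbd11, where CYP71B23 was at 6.6, 7.22 and 6.81. CYP71B26 fell by 1.43 and CYP71B34 by 1.04 relative to mbd6, while CYP71B35 rose by 0.65 (adjusted p = 0.00175), at 6.48, 6.58 and 6.81 in mbd11. CYP79A2 and CYP71B27 were higher by 0.86 and 0.78 (adjusted p = 0.00741 and 0.0448). The CYP71B27 call against mbd6 was lost in 16 of 21 settings, among them each WT, mbd4 or mbd6 array left out and mbd11 replicate 2 left out (0.0567 to 0.106). The CYP79A2 call was lost in 4 of 21.

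In mbd11 against mbd4, 5 genes were called beside a background of 42.3%. CYP71B26 fell by 1.10 and CYP71B34 by 1.06, and CYP79A2, CYP71B27 and CYP71B35 rose by 1.00, 0.88 and 0.41. The CYP71B27 call was lost in 8 of 21 settings, among them mbd4 replicates 1, 2 or 3 left out (0.0886, 0.05 and 0.0677). The CYP71B35 call was lost in 5 of 22, among them mbd4 replicate 1 or 3 left out (0.0729 and 0.0546), and the CYP79A2 call in 1 of 21. The CYP71B26 and CYP71B34 calls held in all 22 settings against either mutant. CYP71B22 differed by -0.05 between mbd11 and mbd4 (95% interval -0.50 to 0.41), and their arrays overlapped.

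Most of the measured CYP71B genes lie in gene arrays on chromosomes 3 and 1, a position that their choice did not use. In the gene order of TAIR10.1, 18 CYP71B genes lie in 1 array on chromosome 3, from CYP71B16 to CYP71B37, with at most 10 genes allowed between neighbours and 7 other genes within the array in all. Of these 18, 11 were measured. A second array on chromosome 1 holds 5, with CYP71B27, CYP71B28 and CYP71B29 measured. The other measured CYP71B genes lie outside these arrays, CYP71B6 on chromosome 2 and CYP71B5, CYP71B31 and CYP71B38 elsewhere on chromosome 3.

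Calls of neighbours differed within the array, and differences between genes were not tested. CYP71B22 and CYP71B23, with no gene between them, both rose in mbd6. CYP71B21, next to CYP71B22 on the other side, was at 2.89, 3.22 and 2.93 in mbd6 and at 2.93, 2.89 and 3.03 in WT. CYP71B34, with a change of 0.31 in mbd6 (adjusted p = 0.484), lies beside CYP71B35, which fell. In mbd11 CYP71B34 fell and CYP71B35 differed by 0.03 (95% interval -0.25 to 0.31).

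Of 6 pairs of measured CYP71B genes with no gene between them, 1 pair was called alike in mbd6, and in 4 pairs a single gene was called. In mbd11 the counts were 0 and 3. The share of single probe sets called was 6.91% in mbd6 and 40.2% in mbd11, and no share was computed for pairs. CYP71B22 and CYP71B35 each stand in more than 1 pair. Among the uncalled partners in mbd6, CYP71B21 and CYP71B36 had WT means of 2.95 and 4.0, at or near the low end of the arrays. On chromosome 1 CYP71B29 rose in mbd6, while the adjacent CYP71B28, at 7.04, 6.76 and 6.81 in mbd6 and 6.66, 6.89 and 6.80 in WT, had a change of 0.09. Coordinates were not used, since the build behind the probe sets is not given in the sources used here.

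**Figure D4:**
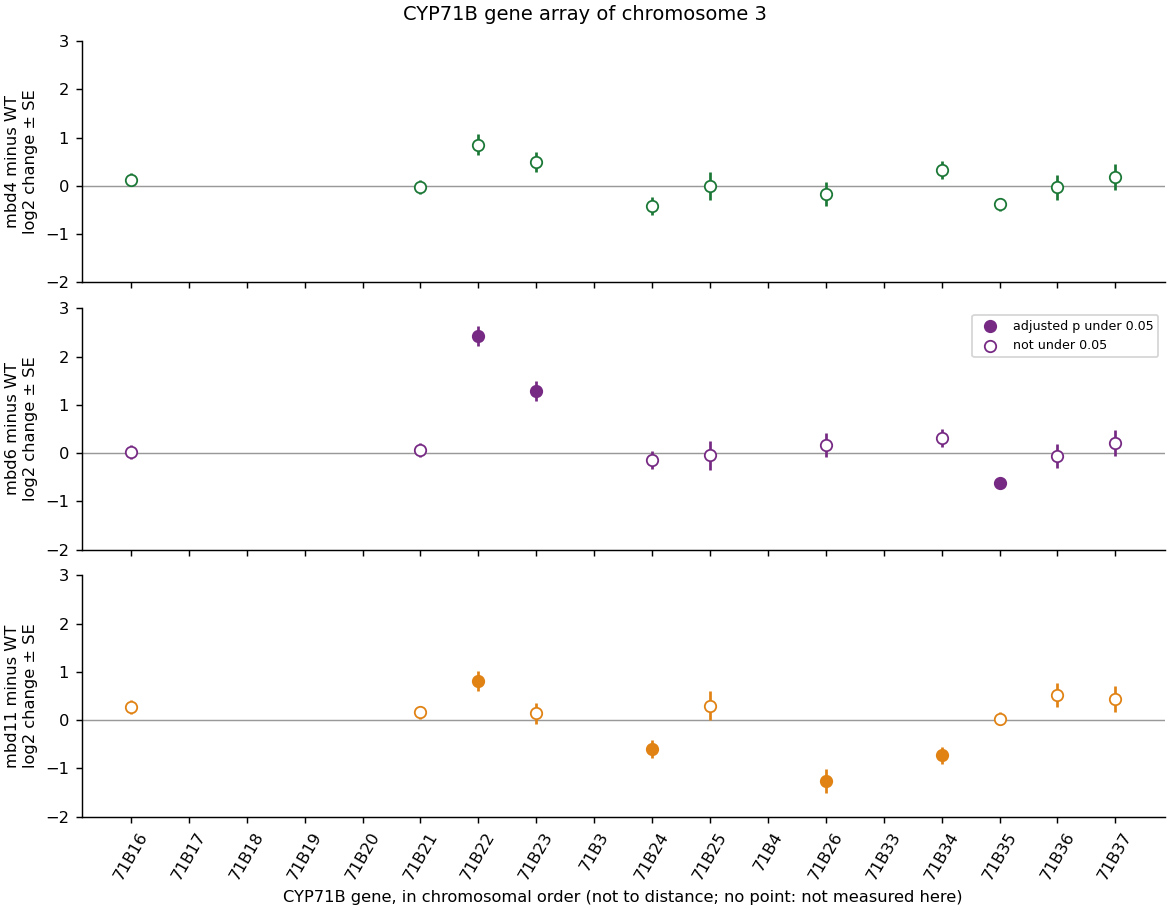
Change relative to WT (y axis, log2 ± SE) along the CYP71B array of chromosome 3 in mbd4, mbd6 and mbd11, with the 18 genes in chromosomal order (x axis, not to distance). Filled points had an adjusted p under 0.05, and genes with no point were not measured here. In mbd6 CYP71B22 and CYP71B23 lie at 2.43 and 1.29, beside CYP71B21 at 0.06 and CYP71B24 at -0.15.

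Genes linked to P450 enzymes were looked up in lists of possible redox partners and pathway neighbours, of which few had a probe set of their own in the annotation used. Of 9 listed redox genes 1 was measured, the diflavin reductase gene AT3G02280, with changes of -0.16, 0.06 and -0.20 in mbd4, mbd6 and mbd11 and 0 calls. Whether its product passes electrons to P450 enzymes was not tested here. All the measured pathway genes named here had WT means of 5 or more, the class in which 30.8% of probe sets were called lower in mbd11. The 3 measured glucosinolate genes of 22 all fell in mbd11 and were not called in mbd4 or mbd6. They were UGT74B1 and AT2G31790, glucosyltransferase genes, and BCAT4, of methionine chain elongation, which fell by 1.11, 1.08 and 0.82 (limma adjusted p = 0.0063, 0.000107 and 0.000208).

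AT2G04400, an indole glycerol phosphate synthase gene of tryptophan synthesis upstream of camalexin, was the 1 measured of 11, and fell by 0.77 in mbd11. HCT, of lignin precursor synthesis, was the 1 measured of 17 and fell by 1.33 in mbd11. OPCL1, a ligase gene of jasmonate synthesis, was the 1 measured of 20. It rose by 1.09 in mbd6 (limma adjusted p = 0.00406) and by 0.53 in mbd11 (0.0464), and differed by 0.64 in mbd4 (0.143). Abscisic acid and gibberellin lists had 0 measured genes.

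Root and shoot markers were read as well. The summed linear intensity of 7 measured root markers was 5796 to 6343 in mbd4, 5995 to 6755 in mbd6 and 2308 to 2886 in mbd11, against 6206 to 6695 in WT. That of 3 shoot markers was 24815 to 25855 in mbd4, 23600 to 25203 in mbd6 and 12758 to 15664 in mbd11, against 27080 to 28298 in WT. Of the 3 shoot markers 0 were called in mbd4 or in mbd6. Their changes in mbd4 and mbd6 were -0.24 and -0.32 for RCA, 0.02 and -0.42 for PRK, and -0.08 and 0.12 for LHCB4.1. The root sum was mostly PYK10, which alone gave 1448 to 2168 in mbd11, against 5422 to 5929 in WT. The other 6 root markers summed to 718 to 861 in mbd11, against 766 to 787 in WT, and their ranges overlapped. In mbd11, 3 root markers were called lower and 1 higher, and all 3 shoot markers lower, beside 19.7% of all probe sets called lower and 20.4% higher. All the measured markers had WT means of 5 or more, the class with 30.8% called lower in mbd11. In mbd6, 2 root markers were called lower and 1 higher, beside 2.91% and 4% of all probe sets. In mbd4 1 root marker was called lower, beside 2.3% of all probe sets called in either direction. Among probe sets with WT means of 5 or more, 1.19% were called lower in mbd4. No measured marker was under 4 on all arrays of a genotype, and their part in the P450 changes was not tested.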

How the data were processed

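Total RNA of whole seedlings was labelled by the Affymetrix 3' IVT procedure, per the labels' protocols. The authors deposited log2 intensities made by RMA, with R 2.11, per the submitters' processing notes. The table held 22746 probe sets beside 64 control probe sets, which were left out of the tests. Of these, 503 were assigned to several genes and 8730 to none here.

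Each probe set was fitted with limma 3.58.1 (lmFit and eBayes, R 4.3.3), using all 12 arrays and a mean for each genotype, from which 6 contrasts were drawn. P-values are two-sided and adjusted by the Benjamini-Hochberg method over all probe sets of a comparison, with 0.05 as threshold. The fit has 8 residual and 4.43 prior degrees of freedom. It assumes the same spread in each genotype, although the median SD of the P450 genes was 0.525 in mbd11 and 0.109 in WT. The fit was also run on simulated data, with an outcome that is not given here. The number of arrays limits the precision.

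The members and lists were chosen with earlier results of these data known. Named genes were up to 12 rises and 12 falls called per mutant and 4 each way per pair of mutants, the 10 highest and 5 lowest WT means, those called alike in all mutants or oppositely in 2, those of a fixed role list, and up to 4 genes per pathway list. CYP71B36, CYP71B37, CYP71B38 and CYP51G2 were added so that every gene is accounted for. RefSeq gene IDs matched all 22. Alternatives were leaving out each array, only the 6 arrays compared, no mbd11 arrays, a replicate block, median centring, repeated quantile normalization, dropping dim probe sets (mean under 5), a floor of 4, array weights, a robust trended prior and the 3' minus 5' covariate. A fit without mbd4 replicate 3 and mbd11 replicate 2 was added after the data were seen. Plots used Python 3.11.15 and matplotlib 3.10.9. Protein and promoter sequences were not used here.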

Additional observations from a re-analysis of the deposited data

Results flagged for a closer look

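A pair of P450 probe sets outside the naming rule gave a signal above WT in mbd11. The probe set of CYP71B30P, whose symbol ends in P, was at 3.17, 3.27 and 3.53 in mbd11, against 2.77, 2.93 and 2.99 in WT, without overlap. Its change was 0.43 (SE 0.13; limma adjusted p = 0.0236). The probe set shared by CYP79C2 and AT1G58265 was at 3.28, 4.16 and 4.39 in mbd11, against 3.29, 3.23 and 3.30 in WT. Its change was 0.67 (SE 0.22; limma adjusted p = 0.0298), and mbd11 replicate 1 lay within the WT values. Both had WT means under 4, where the median change of all probe sets in mbd11 was 0.43 for WT means under 3 and 0.38 from 3 to 4.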

How the results depend on the processing

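The rises of CYP71B22 and CYP71B23 in mbd6 held in all 23 settings, and the fall of CYP71B26 in mbd11 in all 22. In mbd4 the count of P450 genes was 0 over all arrays (2.3% of all probe sets called), 5 with only the 6 arrays compared (8.81%), 4 without all mbd11 arrays (9.72%) or with weighted arrays (10.5%), and 1 with dim probe sets dropped (4.49%) or without mbd4 replicate 3 and mbd11 replicate 2 together (5.01%). Leaving out 1 array gave 0 to 2 in mbd4 (1, 2 and 1 without mbd11 replicates 1, 2 and 3, with 2.91%, 6.44% and 2.88%), 2 to 5 in mbd6 beside 4 (2 without WT replicate 1, 3.78%, or mbd6 replicate 1, 3.9%) and 3 to 11 in mbd11 beside 6 (3 without WT replicate 2, 30.4%, and 11 without mbd11 replicate 1, 46.3%). In mbd6 the count was 5 with only the 6 arrays compared (19.9%), without all mbd11 arrays (18.1%) or with weights (21.5%). In mbd11 the count was 2 with only the 6 arrays compared (22.4%) or with the 3' minus 5' covariate (25.6%). In mbd6 against mbd4 it was 1, and 2 with only the 6 arrays (7.82%), without all mbd11 arrays (10.9%), with weights (10.8%) or with the added fit (5.32%), and 1 to 2 over single arrays left out (2 without mbd11 replicate 2, 7.2%). In mbd11 against mbd4 it was 5, and 3 with only the 6 arrays (19.8%), dim probe sets dropped (49.4%), a floor of 4 (30.8%) or the covariate (32.6%), and 3 to 9 over single arrays (3 without mbd4 replicate 1, 31%, or 3, 33.9%, and 9 without mbd11 replicate 1, 47.7%). In mbd11 against mbd6 it was 7, and 6 to 12 over single arrays (12 and 11 without mbd11 replicates 1 and 3, with 47.9% and 48.9%). Of 18 same-numbered pairs of samples, 3 had deviations correlated over 0.1 (-0.38 to 0.22), so no sign of pairing by number was seen. These values cannot show that no samples shared a batch. Between different numbers, WT replicate 2 reached 0.51 with mbd4 replicate 3 and -0.39 with mbd4 replicate 1. With replicate number as a block the 6 counts were 0, 4, 6, 1, 5 and 8, and the block ended no call of these genes. In at least 1 setting the direction turned for 6 genes in mbd4, 7 in mbd6 and 11 in mbd11, of which 0 were called, with reported changes of at most 0.04, 0.07 and 0.52 in size. In mbd11, CYP71B25 and CYP71B23 were at -0.17 and -0.03 without replicate 2, and CYP71B6 and CYP78A9 at -0.12 and 0.13 without replicate 3. Median centring moved the median mbd11 change of all probe sets by 0.10, from 0.12 to 0.22. A second quantile normalization moved it by -0.10, to 0.02. CYP71B5, at -0.26 over all arrays, ran from -0.60 to 0.01 over single arrays left out, was at 0.01 without mbd11 replicate 2 and mbd4 replicate 3 together, and CYP71B29, CYP71B36 and CYP71B37 were at -0.08, -0.10 and -0.12 with the covariate. The cause was not tested. Each gene had a single probe set, so averaging probe sets could not be run as an alternative. Array number and values near the low end limit the dim genes.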

Other observations

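The probe set shared by CYP71B19 and CYP71B20, neighbouring genes of the chromosome 3 array, was at 8.62, 8.27 and 8.49 in mbd6, against 7.92, 8.0 and 7.65 in WT. The groups did not overlap, and the change of 0.60 did not pass (SE 0.19; limma adjusted p = 0.0801). In mbd11 it was at 7.82, 7.25 and 7.98, lower than in mbd6 by 0.77 (limma adjusted p = 0.00588). CYP718, the only symbol of its family here and without a subfamily letter, was at 5.28, 6.76 and 6.19 in mbd11, against 5.48, 5.27 and 5.57 in WT, a change of 0.64 (adjusted p = 0.107). It was higher in mbd11 than in mbd4 by 0.82 (adjusted p = 0.0445) and than in mbd6 by 0.88 (adjusted p = 0.0351). The symbols CYP71 and CYP59 name cyclophilin genes and not P450 genes in Arabidopsis. Their changes in mbd11 were -0.21 and -0.37 (adjusted p = 0.342 and 0.153).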
